A study of Mus musculus with 2 samples.

Results

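The Krüppel-like factors are transcription factors that bind GC-rich and CACCC-type DNA through a run of zinc fingers at their carboxyl end. The genes described here are Klf2, Klf3, Klf4, Klf5, Klf6, Klf7, Klf9, Klf10, Klf13 and Klf15, taken by exact gene symbol in the platform's annotation. All 10 have probe sets on the array, out of 18193 genes with a symbol of their own. The RNA came from superficial zone cells, the flattened cells of the surface layer of articular cartilage, isolated from the femur and tibia of ICR mice on postnatal day 4. Both cultures were kept in DMEM with 10% serum. One received no retinoic acid (control, n = 1 array) and the other received 10 μM retinoic acid, the active form of vitamin A, for 24 h (n = 1 array). No genetic change is named for either group, and the labels do not say how many animals a culture held. With 1 array per group there is no replicate spread and no p-value, and every fold describes this pair of arrays.

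Family members fall into classes by the partners they recruit. Klf2, Klf4, Klf5, Klf6 and Klf7 belong to the class that mostly activates transcription through acetyltransferases. Klf3 belongs to the class that represses through the corepressor CtBP, and Klf9, Klf10 and Klf13 to the class that binds the Sin3 corepressor. Klf15 is usually placed outside these classes. Several members are induced rapidly by serum, shear stress, cytokines or hormones, and KLF2 and KLF4 have been linked to the upkeep of cartilage matrix gene expression.

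Of the 10 genes, 3 were at least 2-fold lower with retinoic acid (Klf2, Klf4 and Klf15) and 0 were at least 2-fold higher. Among the 11884 genes measured above the median of at least 1 array, 4.34% lay at or past 2-fold lower and 6.54% at or past 2-fold higher. Klf2 and Klf4 were also past 4-fold lower, where 0.757% of measured genes lay, although Klf2 was 3.23-fold lower, short of 4-fold, with the floor on low signals raised to the 70th percentile. Klf6 lay just short of 2-fold on its brightest probe set, and Klf5 had the highest ratio, at 1.61-fold higher. Over the 10 genes the median log2 ratio of retinoic acid over control was −0.37, and 7 lay below 0. Over the 11733 genes with a ratio the median was 0.011, and 49.0% lay below 0.

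Promoters are shown first for members that were lower in every probe set brighter than both array medians. The family's own binding letters can be looked up in them. These genes were chosen by direction, and shared regulation was not tested. Klf13, also lower in every such probe set but by less, is left to the counts. Klf9, little different between the arrays, is added for contrast. Each run holds 250 bases before and 50 after the start that RefSeq gives the gene or one of its transcripts on build GRCm38.p6, written 5′ to 3′ along the gene. Capitals mark GC boxes (GGGCGG) and CACCC boxes (CCACCC) on either strand, the letters that Krüppel-like and Sp factors recognise, and matches to the MEF2 consensus.
Klf2 (chr8:72318812-72319111, plus strand): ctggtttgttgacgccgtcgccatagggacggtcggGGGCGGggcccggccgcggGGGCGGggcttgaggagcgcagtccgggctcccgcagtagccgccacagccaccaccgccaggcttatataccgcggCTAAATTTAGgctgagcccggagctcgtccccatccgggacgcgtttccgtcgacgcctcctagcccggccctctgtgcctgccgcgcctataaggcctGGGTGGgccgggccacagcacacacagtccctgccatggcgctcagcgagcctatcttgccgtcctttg
Klf4 (chr4:55532426-55532725, minus strand): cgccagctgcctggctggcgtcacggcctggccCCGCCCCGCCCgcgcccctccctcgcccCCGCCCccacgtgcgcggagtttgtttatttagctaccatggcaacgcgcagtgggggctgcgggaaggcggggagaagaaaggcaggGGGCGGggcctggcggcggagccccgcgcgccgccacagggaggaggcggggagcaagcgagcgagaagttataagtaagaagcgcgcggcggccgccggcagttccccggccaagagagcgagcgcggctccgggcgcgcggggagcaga
Klf15 (chr6:90462326-90462625, plus strand): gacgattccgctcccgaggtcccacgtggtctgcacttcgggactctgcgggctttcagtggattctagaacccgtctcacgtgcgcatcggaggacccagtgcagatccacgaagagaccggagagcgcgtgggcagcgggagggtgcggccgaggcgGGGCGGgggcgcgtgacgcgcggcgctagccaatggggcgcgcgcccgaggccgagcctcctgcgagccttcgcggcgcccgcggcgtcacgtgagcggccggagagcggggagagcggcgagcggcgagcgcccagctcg
Klf6 (chr13:5861239-5861538, plus strand): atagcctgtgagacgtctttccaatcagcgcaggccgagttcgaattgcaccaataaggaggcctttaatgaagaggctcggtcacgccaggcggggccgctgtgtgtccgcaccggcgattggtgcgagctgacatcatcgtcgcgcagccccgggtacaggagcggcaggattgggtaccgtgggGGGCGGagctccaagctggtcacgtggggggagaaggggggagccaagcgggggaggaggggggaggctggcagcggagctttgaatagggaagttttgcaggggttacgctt
Klf9 (chr19:23140976-23141275, plus strand): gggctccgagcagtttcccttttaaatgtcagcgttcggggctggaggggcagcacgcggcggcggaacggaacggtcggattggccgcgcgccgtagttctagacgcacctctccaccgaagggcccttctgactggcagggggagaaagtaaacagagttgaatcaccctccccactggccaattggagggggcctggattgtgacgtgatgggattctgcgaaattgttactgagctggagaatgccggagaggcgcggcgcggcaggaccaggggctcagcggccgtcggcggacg

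RefSeq sequence was at hand for 8 of the 10 members, and the sequences of Klf5 and Klf10 were not used here. A GC box was present in 7 of the 8 promoters, against 35.7% of 32851 promoters of the same length. The members' promoters are GC-rich, however, with a median GC content of 70.7% against 52.7% overall. Among the 11074 promoters with at least 58.3% GC, the lowest value among the members, 77.1% held a GC box. A CACCC box was present in 4 of 8, against 31.5% of all promoters and 43.0% of the GC-rich ones. GC boxes and CACCC boxes could overlap, as they do in Klf13. Klf9 held neither GGGCGG nor CCACCC on either strand. The shorter run CACCC, which was not counted, is present in Klf9, and in Klf15 on the other strand.

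Klf2 alone of the 8 held a match to the MEF2 consensus, the A/T-rich element bound by MEF2 factors. The match, CTAAATTTAG, reads the same on both strands and lies from base −118 to base −109 relative to the start. The consensus was found in 3.19% of all promoters and in 0.632% of the GC-rich ones. Klf4 had 4 GC boxes and no CACCC box, and Klf6 and Klf15 had 1 GC box each. A CCAAT box (CCAAT) was present in 4 of 8 promoters, against 37.4% of all and 32.3% of the GC-rich ones. There were 4 in Klf6, 3 in Klf9, 2 in Klf13 and 1 in Klf15, so that both lower and little-changed members held one. The core of the cyclic AMP response element (TGACG) was present in 6 of 8 promoters, against 20.8% of all and 31.4% of the GC-rich ones. It was found in Klf2, Klf4 and Klf15, which were past 2-fold lower, and also in Klf3, Klf9 and Klf13, which were not. Klf6, lower in every probe set, had none. No match was found for the TATA box (TATAAA), the CArG box bound by serum response factor, or the direct repeats with spacers of 5 or 2 bases (DR5 and DR2) bound by retinoic acid receptors. These elements were present in 13.6%, 1.63%, 0.0974% and 0.268% of all promoters, in that order, and in 3.52%, 1.11%, 0.0361% and 0.0632% of the GC-rich ones. A missing match says only that these letters are not in this window.

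**Figure D1:**
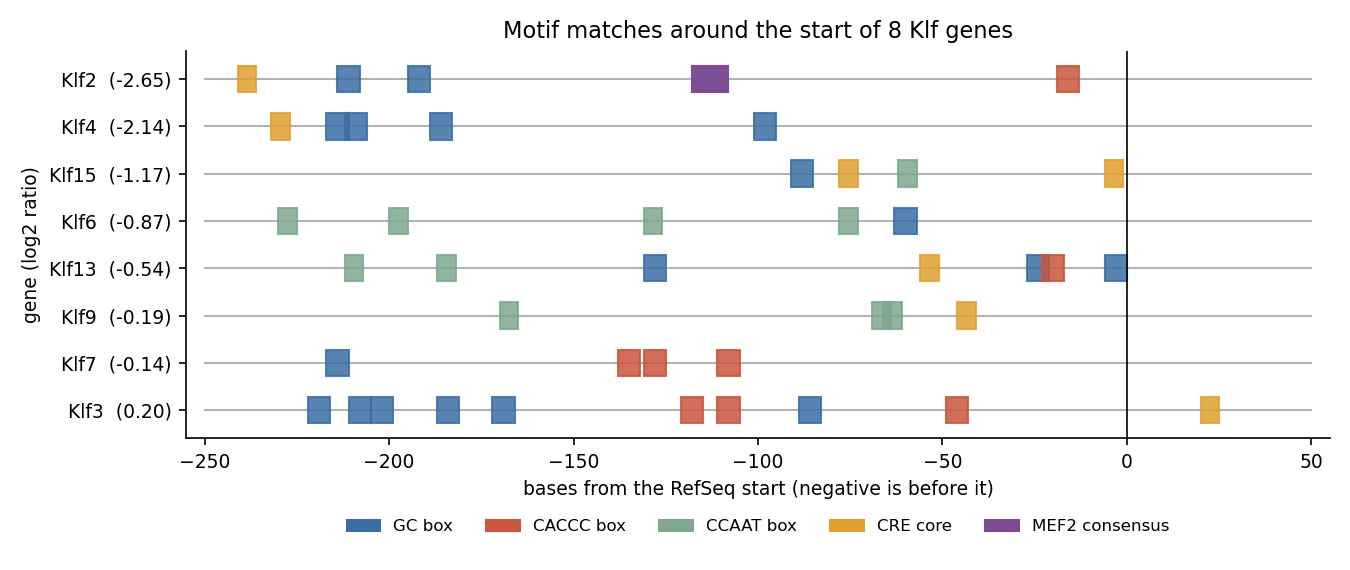
Positions of motif matches on either strand in the 300 bases around the RefSeq start of 8 Klf genes, ordered from the lowest to the highest log2 ratio of retinoic acid over control (in brackets). GC boxes occur in 7 of the 8 genes, with and without a lower signal, and the MEF2 consensus occurs in Klf2.

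The members are read by 34 probe sets. Of these, 28 were brighter than both array medians (26.5 in control and 29.7 with retinoic acid), 1 on the control array only and 5 on neither. A gene was represented by its brightest probe set, and each of the 10 genes passed this filter on both arrays. The probe sets of a gene read the same RNA with different probes. The SD of log2 ratios between them was 0.22 pooled over the 6 members with more than 1 reading, and 0.30 over 4993 genes. This SD covers scatter between probe sets, and neither error shared by a whole array nor variation between cultures.

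**Figure D2:**
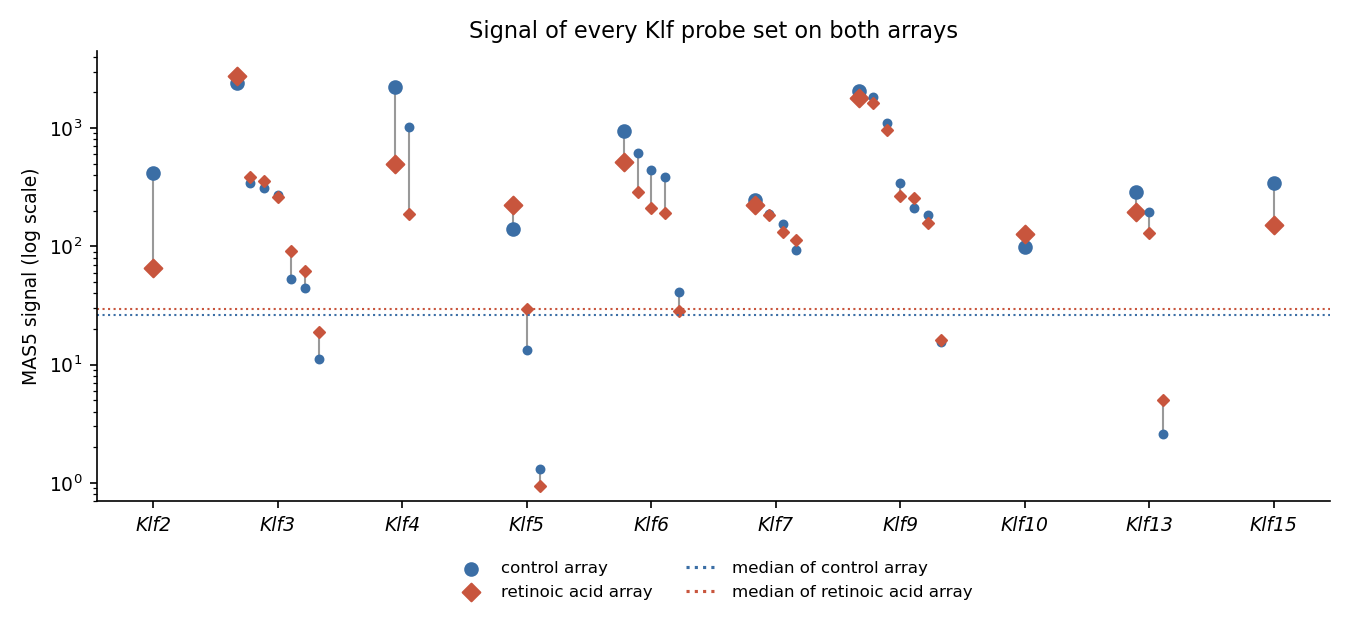
MAS5 signal on a log axis for all 34 probe sets of the 10 genes, with the control array as circles, the retinoic acid array as diamonds and the brightest probe set of each gene drawn larger. Dotted lines are the array medians, 26.5 and 29.7; the vertical gaps are widest for Klf2, Klf4, Klf6 and Klf15 among probe sets above both medians.

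Klf2 encodes a factor known for quiescence of endothelium and T cells. Its single probe set had a signal of 413 in control and 65.5 with retinoic acid. The retinoic acid value was 6.30-fold lower, a log2 ratio of −2.65. With the floor at the 70th percentile the fold was 3.23. Of the 11733 genes with a ratio, 42 had a lower one than −2.65.

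Klf4 encodes a factor of the skin barrier, of growth arrest and of induced pluripotency. Its brighter probe set went from 2203 in control to 501 with retinoic acid, 4.40-fold lower. The dimmer one went from 1013 to 188, 5.39-fold lower. Both readings of Klf4 were therefore past 4-fold, with log2 ratios of −2.14 and −2.43. By the brighter reading, 76 genes had a lower ratio.

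Klf6 encodes a widely expressed factor that is induced by tissue injury. Its brightest probe set read 948 in control and 520 with retinoic acid, 1.82-fold lower. The next read 614 and 288 (2.13-fold lower), 446 and 210 (2.12-fold lower) and 382 and 192 (1.99-fold lower). All 4 readings lay below control by a similar amount, with an SD of 0.11 on the log2 scale, and 2 of them passed 2-fold. The fifth probe set was above the median in control only (41.3 against 28.3). It gives a bound of at least 1.39-fold lower. By its brightest probe set, 5.82% of genes had a lower ratio than Klf6.

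Klf7 encodes a factor best known from axon growth in neurons. Its brightest probe set read 247 in control and 224 with retinoic acid, 1.10-fold lower. The other 3 had log2 ratios of −0.02, −0.22 and 0.27. The readings of Klf7 thus went both ways, and each lay within the pooled SD of 0.30.

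Klf5 encodes a factor of proliferating epithelium and smooth muscle that can bind retinoic acid receptor alpha. Its probe set above both medians read 140.0 in control and 226 with retinoic acid, 1.61-fold higher. This log2 ratio of 0.69 exceeded the pooled SD of 0.30, but it rests on 1 reading. The other 2 probe sets were at or below the median on both arrays, 13.3 and 29.6 for one and 1.30 and 0.933 for the other. Of all genes with a ratio, 11.8% had a higher one than Klf5.

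**Figure D3:**
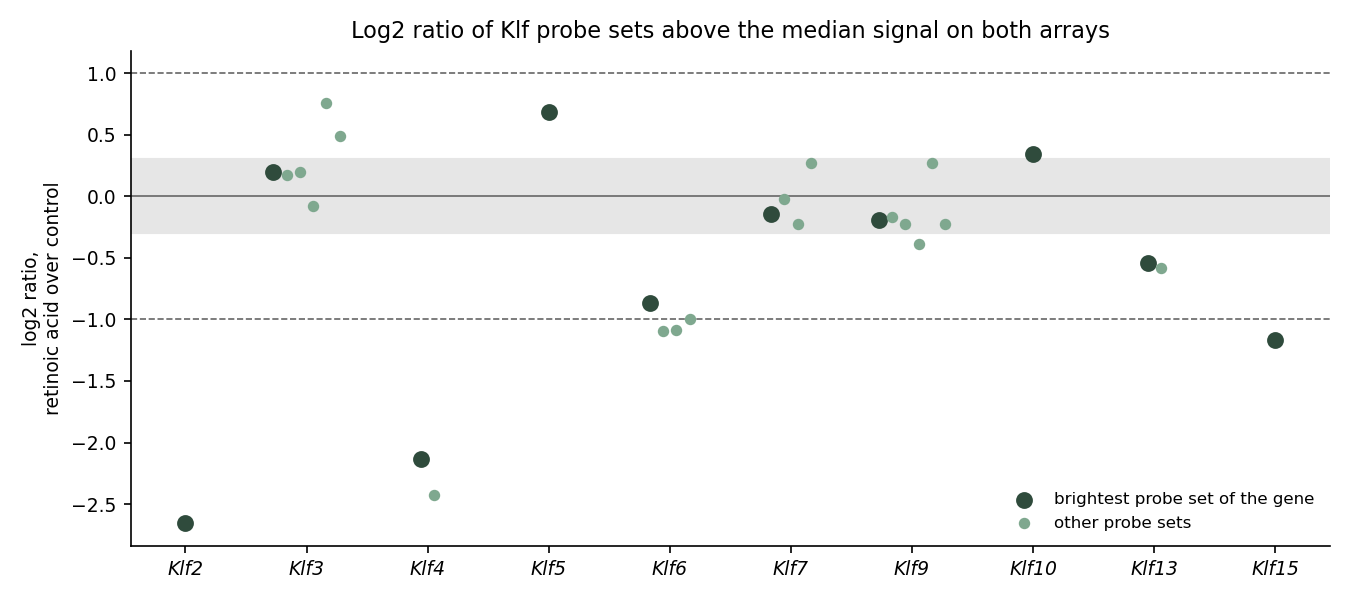
Log2 ratio of retinoic acid over control for the 28 Klf probe sets brighter than both array medians, with the brightest of each gene drawn larger. The grey band is plus or minus 0.30, the pooled SD between probe sets of a gene, and dashed lines mark 2-fold; Klf2, Klf4 and Klf15 lie below the lower line, Klf6 straddles it, and most readings of Klf3, Klf7 and Klf9 lie in the band.

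Klf3 encodes the CtBP-recruiting repressor of the set. Its brightest probe set read 2384 in control and 2733 with retinoic acid, 1.15-fold higher. Of 6 probe sets above both medians, 5 were higher and 1 was lower, with log2 ratios from −0.08 to 0.76. The highest ratios belonged to the dimmest of these, which read 53.4 and 90.5 for one and 44.4 and 62.4 for the other. The 4 brighter ones lay between −0.08 and 0.20, inside the pooled SD. The seventh was below both medians.

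Klf9 encodes a Sin3-binding factor that thyroid hormone and glucocorticoids induce in many tissues. Its brightest probe set read 2052 in control and 1800 with retinoic acid, 1.14-fold lower. Of 6 probe sets above both medians 5 were lower and 1 was higher, with log2 ratios from −0.39 to 0.27. All but the lowest lay within the pooled SD. The seventh was below both medians.

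Klf13 encodes a Sin3-binding factor known for activating a chemokine gene in T cells. Its probe sets read 286 in control and 196 with retinoic acid (1.46-fold lower) and, on the next, 195 and 130.0. The 2 readings differed little, and both log2 ratios, −0.54 and −0.59, exceeded the pooled SD. The remaining probe set was below both medians.

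Klf10, the TGF-β-inducible early gene of the family, has 1 probe set, which read 99.6 in control and 126 with retinoic acid. Its value was 1.27-fold higher, a log2 ratio of 0.34, only slightly more than the pooled SD.

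Klf15 encodes a glucocorticoid-induced regulator of amino acid, lipid and glucose use in muscle, liver and fat. Its single probe set read 342 in control and 152 with retinoic acid. The value was 2.25-fold lower, a log2 ratio of −1.17, and 3.14% of genes had a lower one.

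By class, 4 of the 5 activating members lay below control, with a median log2 ratio of −0.87 and a range from −2.65 (Klf2) to 0.69 (Klf5). Among these 4, Klf7 stood at −0.14, within the pooled SD, with readings both ways. Of all genes with a ratio, 49.0% lay below 0. The Sin3-binding members Klf9, Klf10 and Klf13 ranged from −0.54 to 0.34, with a median of −0.19. Klf3, the CtBP-binding member, stood at 0.20. In the order of ratios from the lowest, Klf2 and Klf4 were followed by Klf15, Klf6, Klf13, Klf9, Klf7, Klf3, Klf10 and Klf5. Neighbours in this order differed by more than 0.43, the SD of a difference between 2 readings with the pooled scatter, only for Klf2 and Klf4 (0.52) and for Klf4 and Klf15 (0.97). The gap between Klf2 and Klf4 did not hold under every setting. It was 0.13 with the median signal as an offset and 0.37 with the median across probe sets, and with the floor at the 70th percentile Klf4 was the lower. The dimmer probe set of Klf4, at −2.43, also lay nearer to Klf2. The classes differed in size and no test between them was run.

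**Figure D4:**
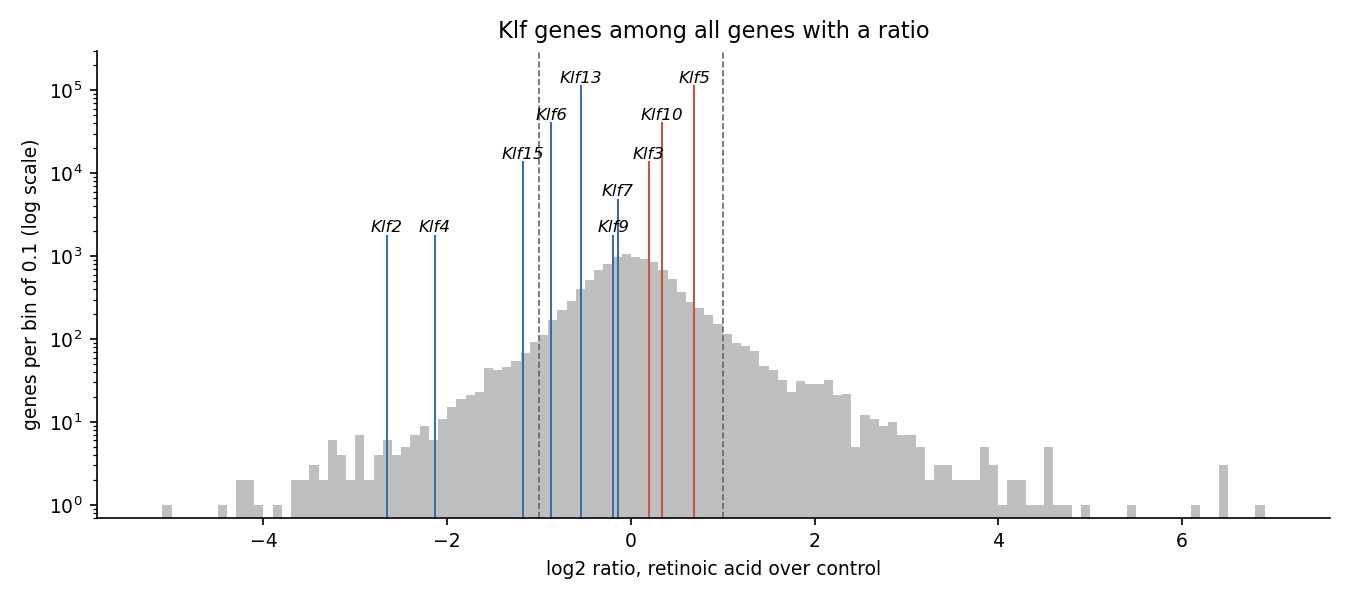
Number of genes per 0.1 of log2 ratio (log axis) for the 11733 genes with a ratio, with each Klf gene marked by a line at its brightest probe set, blue below 0 and red above. Dashed lines mark 2-fold; Klf2 and Klf4 lie in the sparse lower tail, and Klf3, Klf7, Klf9, Klf10 and Klf13 in the body of the distribution.

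Other members of the family and the related Sp factors were read from lists. Of 6 further Klf genes on the array, 2 lay at or past 2-fold lower and 0 past 2-fold higher. Among all measured genes the shares were 4.34% and 6.54%. Klf12, a CtBP-binding relative of Klf3, read 392 in control and 74.5 with retinoic acid on its brightest probe set, 5.25-fold lower. Its 3 probe sets above both medians were all lower, from 1.49-fold to 5.25-fold. Klf14 read 214 in control and 27.1, below the array's median, with retinoic acid, at least 7.21-fold lower on a single probe set. Klf11 (1.32-fold higher), Klf16 (1.21-fold lower), and Klf17 (at least 1.20-fold higher) lay within 2-fold, and Klf1, at 28.4 and 23.3, stood too near the medians for a fold. Of 5 measured Sp genes, Sp7, which encodes the osteoblast factor osterix, was 3.01-fold lower (125 to 41.6). Sp1 (1.40-fold higher), Sp3 (1.25-fold lower), Sp4 (1.40-fold lower) and Sp6 (at least 1.19-fold higher) were within 2-fold.

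The genes of partner proteins were all within 2-fold. Of 11 cofactor and ubiquitin ligase genes, 0 passed 2-fold in either direction, and the median log2 ratio was 0.11. Among all 11733 genes with a ratio, 10440 lay within 2-fold. Fbxw7, which encodes a ligase subunit that targets KLF5 and KLF2 for degradation, was 1.57-fold lower (224 to 142). Hdac2, a Sin3-associated deacetylase gene, was 1.44-fold higher (1475 to 2131). The MEK5-ERK5-MEF2 route induces Klf2 and Klf4 in endothelium under flow. Its 7 genes were all within 2-fold, with 6 below control and a median of −0.24. Of all genes with a ratio, 49.0% lay below 0. Map2k5, which encodes MEK5, counts among the 6, but only 1 of its 3 probe sets above both medians was lower. Mef2c was 1.28-fold lower (157 to 123) and Mef2a 1.27-fold lower (1147 to 904).

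Genes that KLF2 or KLF4 regulate in other cells were read as separate lists of activated and repressed genes, and within each list both directions occurred. Of 6 measured genes that they activate, 2 were at least 2-fold higher and 0 lower, with a median log2 ratio of −0.13. Thbd, the thrombomodulin gene, was 4.94-fold higher (1018 to 5027), and S1pr1, a sphingosine-1-phosphate receptor gene, was 2.76-fold higher (64.6 to 178). Of 4 measured genes that they repress, 3 were at least 2-fold higher and 1 lower, against the same shares, with a median of 1.27. Adm, the adrenomedullin gene, was 3.16-fold higher (1140 to 3601) and Vcam1, an adhesion molecule gene, 2.30-fold higher (449 to 1033). Edn1, the endothelin gene, was at least 2.51-fold higher, from 4.26 in control to 66.6. Ccl2, a monocyte chemokine gene, was 9.58-fold lower (417 to 43.5).

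Lists for glucocorticoid, thyroid hormone and TGF-β responses, the adipogenic cascade and KLF15 targets were read next. The thyroid hormone list includes receptor and deiodinase genes, not only induced ones. Of 8 glucocorticoid-induced genes, 2 were at least 2-fold higher (against 6.54% of measured genes) and 0 lower (against 4.34%), with a median of −0.06. The 2 were Errfi1 (3.87-fold, 825 to 3193) and Dusp1 (3.16-fold, 947 to 2996), both feedback inhibitors of kinase signalling. Fkbp5 (1.07-fold lower) and Tsc22d3 (1.13-fold lower) were near control. Cebpd, also in the adipogenic list, was 1.73-fold lower (1209 to 699). Of the 8 genes 5 lay below control, against 49.0% of all genes with a ratio, and 3 above. Of 3 measured genes of the thyroid hormone response, Dio2, which encodes the activating deiodinase, was 90.3-fold higher. Hr, a hormone-induced corepressor gene, was at least 3.04-fold lower (90.4 to 12.9). The receptor gene Thra was 1.85-fold lower. Of 4 measured immediate TGF-β targets, all lay above control with a median of 0.69, as did 5979 of all 11733 genes with a ratio. Pmepa1 alone passed 2-fold (5.68-fold higher), against 6.54% of measured genes. In the adipogenic cascade, in which Klf4, Klf5 and Klf15 act, 5 genes were measured, with a median of −0.64. Fabp4 was 11.0-fold higher (244 to 2689) and Lpl, which encodes lipoprotein lipase, was 2.80-fold lower. The shares of 6.54% higher and 4.34% lower also apply to the adipogenic and thyroid hormone lists. Bcat2 (1.09-fold higher) and Slc2a4 (1.02-fold lower) were the 2 measured metabolic targets of KLF15.

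Markers of cell types were read beside these values, since some members are abundant in other cells and since fewer cells of a type cannot be told apart from less RNA per cell. All 7 chondrocyte markers were above the median on both arrays. All 7 also lay below control with retinoic acid, against 49.0% of all genes with a ratio, and their median log2 ratio was −0.75. Sox9 was 10.8-fold lower and Prg4, the lubricin gene of the superficial zone, 1.67-fold lower. Acan was 32.3-fold lower and Col2a1 1.29-fold lower. Klf2 is abundant in endothelium. Of 7 endothelial markers, 0 were above the median in the control culture. With retinoic acid 2 of the 7 were (Cldn5 at 108 and Kdr at 36.6), and Pecam1 and Cdh5 stayed below. The summed signal of these markers went from 99.8 to 198, of which Cldn5 (22.7 to 108) made up most of the gain. Without Cldn5 the sums were 77.0 and 89.6, made up mostly of signals below the array medians. Of 6 leukocyte markers 4 were above the median in control and 3 with retinoic acid (Cd68, Csf1r and Adgre1 on both and Fcer1g in control), and the sum was 179.6 and 187. Adgre1 (31.9 and 33.8) and Cd68 (34.9 and 43.2) stood near the medians. All 4 skeletal muscle markers (Myh3, Acta1, Myog and Ckm) were above the median on both arrays, with sums of 326 and 371. Acta1 (177 and 227) was the brightest of them, and Myog (40.0 and 52.2) and Ckm (46.2 and 31.0) stood near the medians. Of 3 adipocyte markers only Fabp4 was above the median, and of 4 epithelial markers only Epcam was (2.09-fold lower, 87.0 to 41.6). The 2 erythroid markers on the array were below it on both. The ratio of 3′ to 5′ signal, which reflects RNA integrity, was 1.29 in control and 1.25 with retinoic acid for Actb, and 0.824 and 0.839 for Gapdh. The part of the shift in cell type markers in the Klf values was not tested.

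**Figure D5:**
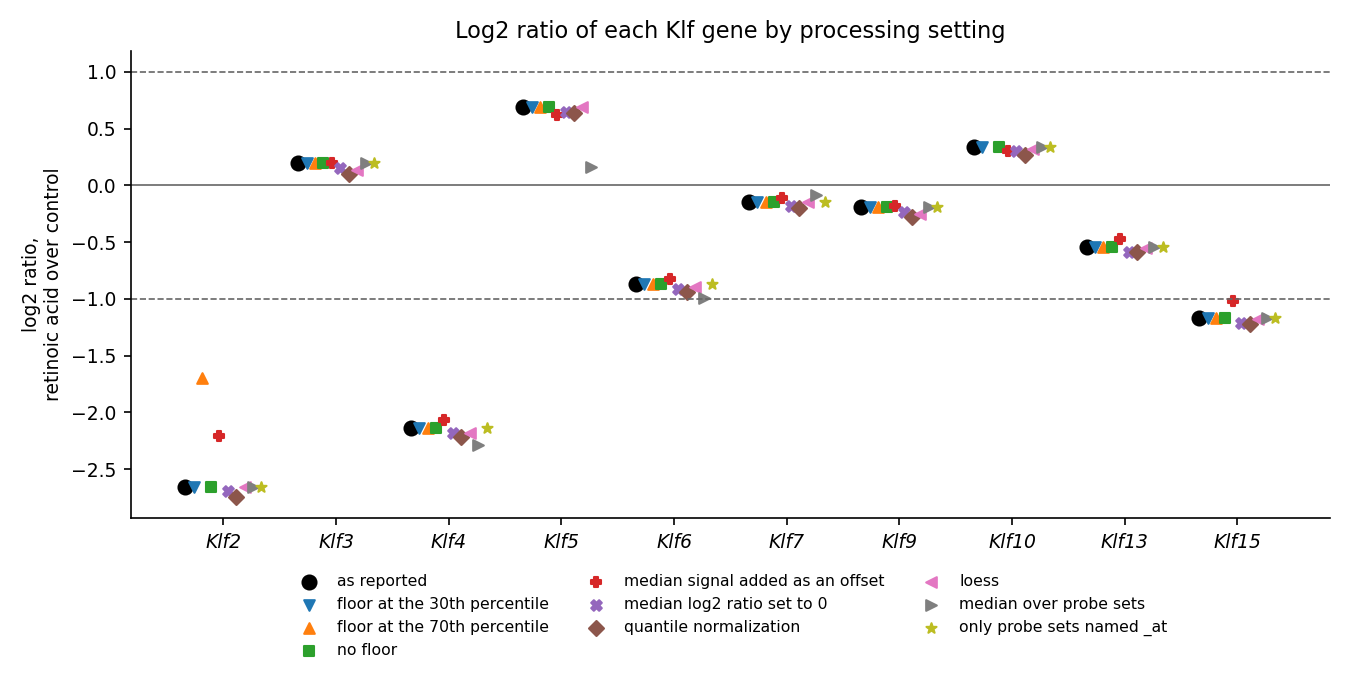
Log2 ratio of each Klf gene as reported (black) and under each alternative setting that gave a value, with dashed lines at 2-fold. Klf2, Klf4 and Klf15 lie beyond the lower line under every setting shown, and Klf2 moves most, to −1.69 with the highest floor.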

How the data were processed

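Total RNA (100 ng) from each culture was labelled as biotinylated cRNA and hybridised to Affymetrix Mouse Genome 430 2.0 arrays, 1 per group, per the labels' protocols. The deposited values are intensities, one linear signal per probe set, made with MAS5 per the submitters' processing notes. Its version and scaling target and any detection calls are not given in sources used here. They were used unscaled (ratio of trimmed means 1.06). Of 45101 probe sets, 34945 have 1 gene symbol in the platform annotation, and all 10 member symbols match RefSeq by Entrez identifier. The number of arrays limits the precision.

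Signals at or below an array's median over all probe sets except the 64 controls were raised to it. Each gene was read from the probe set whose mean log2 signal was highest. A ratio with 1 side at the median is a bound ("at least"); with both sides there, the gene was not measured (6309 genes). A probe set above the median on 1 array whose bound points the other way has no fold. Named were every member, every measured further Klf and Sp gene, and from each other list the members past 2-fold or else the 2 with the largest ratios. Of the chondrocyte markers Col2a1, Acan, Sox9 and Prg4 were named, and of the other cell type markers those above the floor. Fkbp5, Tsc22d3, Cebpd, Thra, Pecam1 and Cdh5 were added after their values were seen. The members and lists were chosen with earlier results of these data known. The counting step was tested on simulated data. No group test was possible with 1 array each. Tools were matplotlib 3.10.9, statsmodels 0.14.6, scipy 1.17.1, pandas 2.3.3, numpy 2.4.6 and Python 3.11.15.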

Additional observations from a re-analysis of the deposited data

How the results depend on the processing

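Alternatives were floors at the 30th and 70th percentile, no floor, the median signal as an offset, 3 scalings (median log2 ratio set to 0, quantile, loess, span 0.3), each gene's median across its probe sets, and only probe sets with unmodified _at names. Of 88 member ratios recomputed, 85 moved by less than 0.30, the pooled SD between probe sets, and no ratio of a member past 2-fold changed sign. Many of these values were fixed in advance, so the count overstates how stable the ratios are. Each member was above both medians, so the 30th percentile floor and no floor could not change its ratio. The _at names affected only Klf5, and the median across probe sets could not change Klf2, Klf10 or Klf15. The log2 ratio of Klf2 was −1.69 with the floor at the 70th percentile, which lies above its retinoic acid signal, and −2.21 with the offset. Klf5 was at 0.16 by the median across its probe sets, 2 of which are below both array medians, and has no value with the _at names alone. Klf10 has none with the 70th percentile floor. Klf2, Klf4 and Klf15 stayed at least 2-fold lower under every alternative, and Klf4 stayed past 4-fold, as Klf2 did in all but the 70th percentile floor, and Klf15 came nearest to the threshold with the offset (−1.02). The number of other Klf and Sp genes at least 2-fold lower was 1 in place of 3 with the 70th percentile floor, which raises more signals. Klf14 and Sp7, at 27.1 and 41.6 with retinoic acid, were those that no longer passed. No paired analysis was possible because each group has 1 array, and no array could be left out. Klf2, Klf10 and Klf15 each rest on a single probe set.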
